A study of Mus musculus with 12 samples.

Results

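The deposited gene table of this study lists, beside known mouse genes, loci that its transcript assembly added and that match no known gene model. Such loci carry names of the form ONT plus a number and the gene type New_gene. The report covers those new loci that had a match in at least 1 sequence or function database, whose KEGG entry was not K11969, and that had reads in at least 1 library. There were 2907 such loci among 26299 features with reads, and another 163 loci met the database rule but had no read. Members were chosen by annotation and not by any change in level. The other new loci with reads were 6734 with KEGG entry K11969 and 812 without any database match. Reads came from MODE-K, an established line of murine epithelium from the small bowel, labelled Wild Type, in 12 libraries of 4 groups with 3 replicates each. The control group had no treatment (0 Gy, 0 h). The irradiated groups received gamma rays from a cobalt source and were harvested 48 h after 4 Gy (4Gy_48h), 24 h after 12 Gy (12Gy_24h) or 48 h after 12 Gy (12Gy_48h). All groups share the cell line and genotype, and the labels name no deletion or transgene. Whether replicates were grown separately is not stated in the labels, and the p-values therefore reflect only how these libraries vary, possibly for technical reasons. Control cells were harvested at 0 h only, so dose, time after exposure and time in culture cannot be told apart in comparisons with control. The 3 comparisons with control share the same control libraries.

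A match in a protein database says only that translated sequence of a locus resembles a listed protein. The NR database of nonredundant proteins holds characterised proteins and also automatic predictions, among them the mCG and rCG entries from early computational annotation of the mouse and rat genomes. Many such predictions have no known function. Genes for ribosomal proteins and for Gapdh have many processed pseudogenes in the mouse genome, copies made when an mRNA was reverse transcribed and inserted, so that reads of the parent gene and of a copy can be hard to separate. Endogenous retroviruses are another large source of repeated sequence. Intracisternal A particles (IAP) are mouse elements of this kind that still carry gag and pol reading frames and are normally silenced by DNA methylation and histone H3 lysine 9 methylation.

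Library totals ran from 3616416 to 4831641 assigned reads, of which 306051 to 472007 fell on the loci described here. The markers of epithelial cells summed to 1.32 to 16.7 CPM (counts scaled to library size) per library, with Cldn3 and Cldn7 at 0 reads, and those of intestinal lineages to at most 2.69 CPM, with Cdx1, Lgr5, Muc2 and Alpi at 0. Of the epithelial markers, Krt18 had 353 reads in all and the next, Krt8, had 10. Fibroblast markers were all detected, at 691 to 1119 CPM in sum in the controls and 2276 to 2723 CPM at 12Gy_24h. Vim (mean 1360 CPM over the 12 libraries) and Col1a2 (247 CPM) made up most of that sum. Means of the others were 11.3 CPM for Col1a1, 2.21 for Pdgfrb, 1.54 for Pdgfra, 0.434 for Dcn and 0.174 for Col3a1. Immune markers summed to 17.1 to 49.4 CPM, with Ptprc and Cd3e at 0, and endothelial markers to at most 1.11 CPM. Among the immune markers, Cd68 had 1019 reads in all, Lyz2 323, Cd79a 63 and Itgam 1. Mitochondrially encoded genes took 0.406% ± 0.0736 of reads in the control group, 0.337% ± 0.133 in 4Gy_48h, 0.517% ± 0.0941 in 12Gy_24h and 0.458% ± 0.0514 in 12Gy_48h (SD, n = 3). The part of these differences in the results below was not tested.

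Nearly all of the loci were placed by NR. An NR entry was present for 2887 loci (99.31%), spread over 687 distinct entries, and for 1295 loci NR was the only database with a match. Gene Ontology terms were given for 1259 loci, KEGG entries for 877, Swiss-Prot entries for 624 and Pfam domains for 377. The matched protein came from Mus musculus for 1908 loci, from Rattus norvegicus for 617 and from the Chinese hamster Cricetulus griseus for 155. By the text of the NR entry, 1500 loci matched uncharacterised or unnamed proteins, 683 other named proteins, 576 rat gene predictions of the rCG kind, 96 ribosomal proteins, 18 endogenous retroviruses and 13 zinc finger proteins. A single locus matched a LINE-1 protein (ORF2), with 66 reads in all, too few to be tested. In KEGG, the entries shared by most loci were K10591, the E3 ubiquitin ligase NEDD4 (282 loci), K06751, MHC class I antigen (31 loci), and K04498, E1A/CREB-binding protein (31 loci). The table gives neither positions nor sequences for these loci, so whether they lie in introns, exons or between genes was not analysed here.

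Reads were very unevenly spread over the loci. Together they held 4211841 reads, with a median of 67 reads per locus over the 12 libraries, and 210 loci had fewer than 12 reads. The 10 loci with the most reads held 40.7% of the reads and the top 100 held 85.8%. A filter on low counts kept 1319 of the 2907 loci, which held 98.7% of their reads. Counts are not per length, so an order of loci here is an order of reads and not of abundance.

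The loci as a whole took a smaller share of reads in irradiated than in control cells. Their share of all reads was 9.77%, 9.93% and 10.4% in the 3 controls and 9.08%, 8.91% and 9.28% at 4Gy_48h. It was 8.37%, 8.47% and 8.51% at 12Gy_24h and 8.52%, 8.49% and 8.46% at 12Gy_48h. Every control library lay above every irradiated library, every 4 Gy library lay above every 12 Gy library, and the 24 h and 48 h values after 12 Gy overlapped. Without the locus with the most reads, which matched Gapdh, these did not overlap: the share was 7.59%, 7.68% and 7.62% at 24 h and 7.95%, 7.9% and 7.79% at 48 h, a difference of 0.249 percentage points. As a percent of known-gene reads, 48 h stood 0.445 above 24 h, again without overlap. The group means of the share with all loci differed (exact permutation test of the F statistic over all 369600 splits into 4 groups of 3, p = 0.00039). No comparison of 3 libraries with 3 can go below an exact permutation p of 0.1. In bulk RNA, fewer cells of a type and less RNA per cell cannot be told apart. The number of loci with at least 1 read was 2665, 2663 and 2648 in the controls, 2587, 2552 and 2570 at 4Gy_48h, 2229, 2175 and 2200 in the 12Gy_24h libraries and 2587, 2576 and 2553 in those of 12Gy_48h. Detection was thus lowest in the 24 h libraries, whose totals were within the range of the other libraries.

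The loci described here lost a smaller part of their share than the K11969 loci, which was not shown against the loci without any match. Known genes took 76.3% ± 1.19 of reads in control and 86.2% ± 0.0112 at 12Gy_24h (SD, n = 3). Loci with KEGG entry K11969 took 10.6% ± 0.882 in control, 6.38% ± 0.797 at 4Gy_48h, 3.2% ± 0.0622 at 12Gy_24h and 5.88% ± 0.548 at 12Gy_48h. Among the loci described here, those whose NR entry was matched by 10 or more loci ran a similar course. They took 2.77%, 1.68%, 0.836% and 1.53% in the same order (means of 3 libraries), so the smaller loss does not hold for them. Loci without any match took 0.338% ± 0.0456, 0.324% ± 0.0325, 0.278% ± 0.0192 and 0.367% ± 0.0322 in the same order. The ratio of reads on the loci described here to reads on all other new loci was 0.916 ± 0.0636 in control, 1.37 ± 0.124 at 4Gy_48h, 2.43 ± 0.0723 at 12Gy_24h and 1.37 ± 0.129 at 12Gy_48h. This ratio differed among the groups (exact permutation test, p = 0.000649). Against the loci without any match alone, the ratio was 30.1 ± 4.99, 28.3 ± 3.32, 30.5 ± 2.3 and 23.2 ± 2.04 in the same order and did not pass (exact permutation test, p = 0.108).

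Most of the tested loci that changed were lower after irradiation. At 12Gy_24h, 943 of 1319 loci were lower than control and 85 higher (edgeR quasi-likelihood test, Benjamini-Hochberg adjusted over all 15086 tested features), where 29.4% of all features were lower and 18.5% higher. The median log2 fold change of the loci was −1.87. At 12Gy_48h, 630 were lower and 67 higher, against 20.2% and 12.9% of all features, with a median of −0.82. At 4Gy_48h, 454 were lower and 26 higher, against 13.0% and 4.53% of all features, with a median of −0.63. The share of loci called lower stood above that of all features in each of the 3 comparisons. The counts at 4Gy_48h moved with single libraries: 292 were lower without 4Gy_48h replicate 2, and 14 and 16 were higher without 4Gy_48h replicate 1 and without control replicate 3. Scaling on known genes only, which moves the median of known genes by 0.137 to 0.233 on the log2 scale, raised the counts of lower loci to 992, 742 and 569 and cut those of higher loci to 53, 45 and 14.

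From 24 h to 48 h after 12 Gy many of these loci came back up. In that comparison 523 loci were higher and 75 lower at 48 h, against 20.6% and 11.4% of all features, with a median log2 difference of 0.87. Of the loci that were lower at 24 h than in control, 475 were higher at 48 h than at 24 h, and 258 of these 475 were still lower at 48 h than in control. In all, 602 loci were lower than control at both times after 12 Gy, and 396 of them also at 4Gy_48h. These joint counts reuse libraries, since the 24 h libraries enter both 24 h comparisons and the controls enter every comparison with control. A locus low at 24 h only through the spread of those libraries tends to appear higher at 48 h than at 24 h. The joint counts were not made over all features, so they are not set apart from the rest of the features. The fall and the partial return went along with a lower and then higher number of detected loci, and the part of detection in the counts was not tested.

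The direction of change followed how many loci shared an NR entry, a grouping that was chosen after values had been seen and gets no test. Entries matched by 1 locus only numbered 551 and held 54.34% of the reads. Entries matched by 10 or more loci numbered 32 but covered 1994 loci and 19% of the reads. The share of all reads on loci with an entry of their own was 4.76%, 4.56% and 4.9% in control, 5.09%, 4.93% and 4.89% at 4Gy_48h, 5.14%, 5.26% and 5.27% in the 12Gy_24h libraries and 4.63%, 4.66% and 4.79% in those of 12Gy_48h. The 24 h libraries were highest here, while control and 12Gy_48h overlapped. This class holds the Gapdh locus, and without it the share was 4.23%, 4.12% and 4.47% in control, 4.45%, 4.31% and 4.29% at 4Gy_48h, 4.37%, 4.47% and 4.38% in the 12Gy_24h libraries and 4.06%, 4.06% and 4.11% in those of 12Gy_48h. The 24 h values then overlapped with control and 4Gy_48h, and the 12Gy_48h libraries lay below all others. The share on loci whose entry was matched 10 or more times was 2.54%, 2.92% and 2.84% in control, 1.57%, 1.54% and 1.93% at 4Gy_48h, 0.865%, 0.81% and 0.832% in the 12Gy_24h libraries and 1.6%, 1.6% and 1.38% in those of 12Gy_48h. All 9 irradiated libraries lay below all 3 controls, and the 24 h libraries lay below all others. Loci whose entry was matched 2 to 9 times (342 loci) took 2.51% ± 0.104 in control and 2.27% ± 0.0311 at 12Gy_48h.

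**Figure D1:**
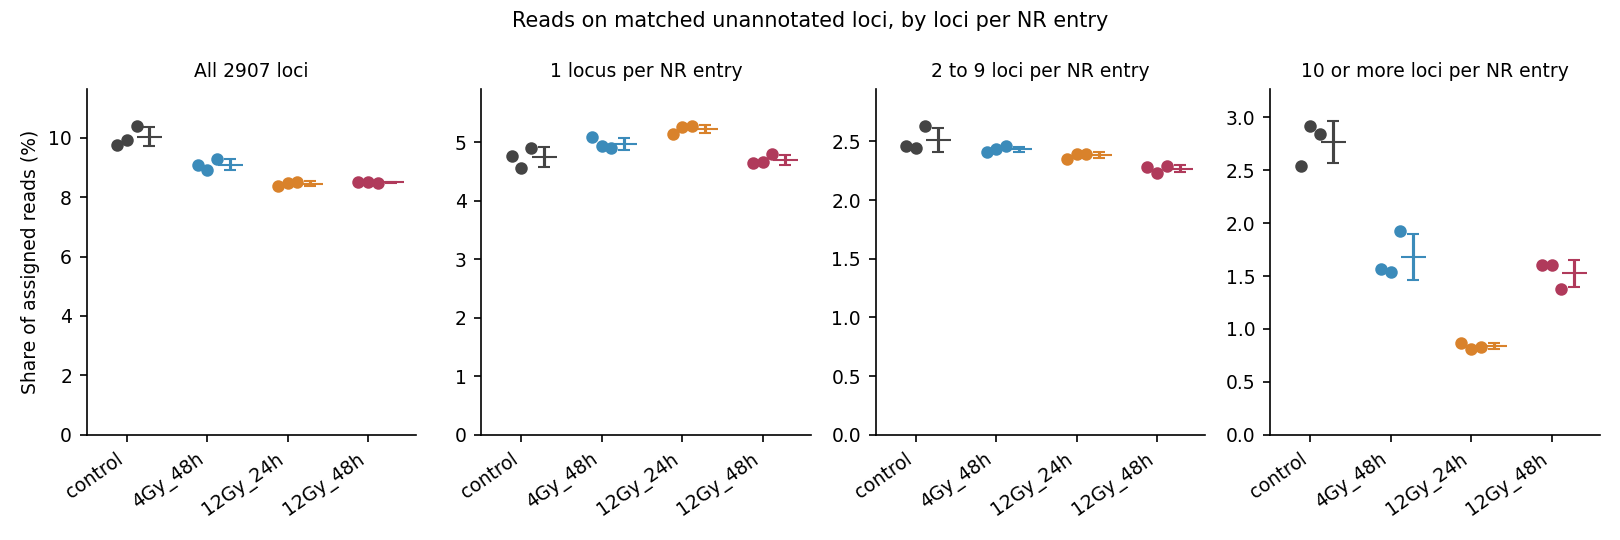
Percent of all assigned reads per library (y axis, linear, in percent) on loci with database matches, split by the number of loci that share their NR entry; points are libraries and crosses with bars are means ± SD of 3 libraries. The loci of entries matched by 10 or more loci fall from 2.77% in control to 0.836% at 12Gy_24h and stand at 1.53% at 12Gy_48h, while entries matched by 1 locus stay between 4.56% and 5.27% in every library.

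The same split in the test of single loci showed the falls among the shared entries. Of all features, 29.4% were lower and 18.5% higher at 12Gy_24h, 20.2% and 12.9% at 12Gy_48h, and 13.0% and 4.53% at 4Gy_48h. Of 927 tested loci with entries matched 10 or more times, 835 were lower and 11 higher at 12Gy_24h (median log2 fold change −2.19), 548 and 7 at 12Gy_48h (−1.03), and 405 and 5 at 4Gy_48h (−0.81). At 48 h against 24 h after 12 Gy, 424 of them were higher and 9 lower (median 1.09), where 20.6% of all features were higher and 11.4% lower. Of 220 tested loci with an entry of their own, 27 were lower and 51 higher at 12Gy_24h, with a median of 0.10 that became −0.13 with scaling on known genes, under which 44 were lower and 31 higher. At 12Gy_48h, 21 of these were lower and 43 higher, again turning to 39 lower and 27 higher with scaling on known genes. So the shared entries were lower under both scalings, and the direction for entries with 1 locus depended on the scaling.

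**Figure D2:**
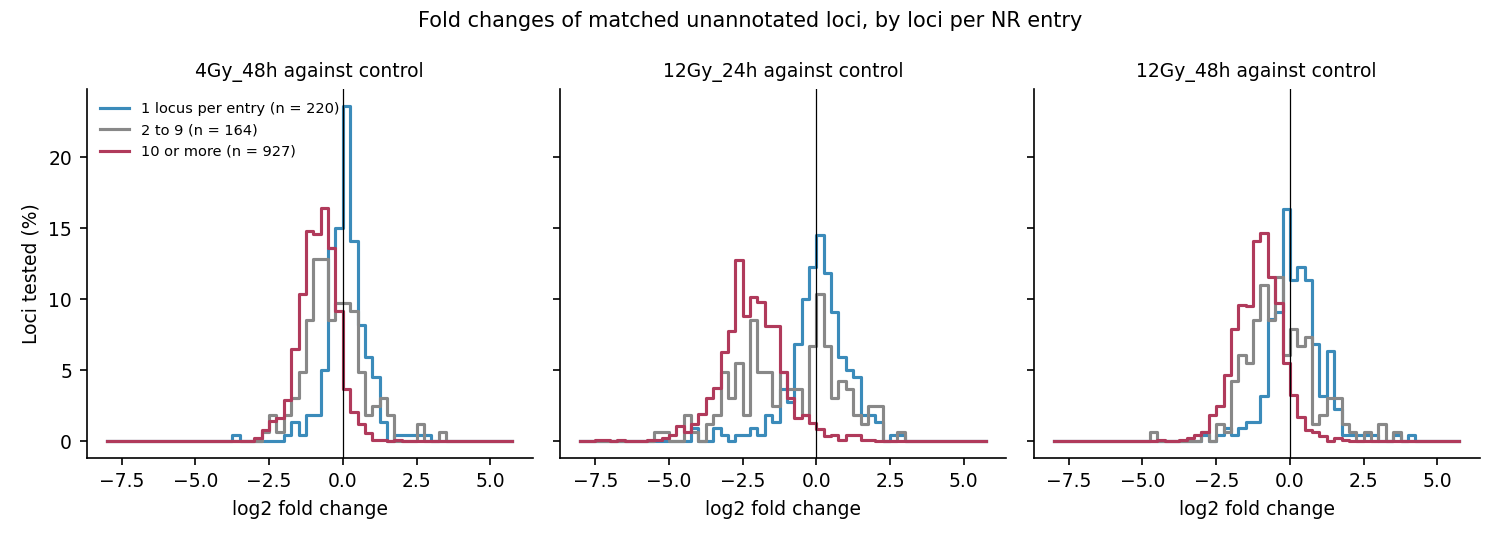
Percent of tested loci (y axis) by log2 fold change (x axis) in each comparison with control, with 1 line for each number of loci per NR entry. Loci of entries matched 10 or more times centre at −2.19 at 12Gy_24h and −1.03 at 12Gy_48h against control; the centre of entries with 1 locus, 0.10 and 0.15, changes sign with scaling on known genes.

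Loci of 1 entry may share sequence, so reads were also summed by entry before the test. Of 347 entries tested, 108 were lower and 60 higher at 12Gy_24h, against 25.4% and 20.0% of all features in that fit. At 12Gy_48h, 91 were lower and 52 higher (18.1% and 13.0% of all features), and at 4Gy_48h 66 were lower and 19 higher (11.0% and 4.63%). At 48 h against 24 h after 12 Gy, 107 were higher and 55 lower (18.4% and 13.1%). With scaling on known genes, 131 entries were lower and 36 higher at 12Gy_24h, 115 and 35 at 12Gy_48h, and 85 and 10 at 4Gy_48h. Of the 32 entries matched by 10 or more loci, 29 were lower in each comparison with control, and 25 were higher and 0 lower at 48 h than at 24 h. These 32 entries held 1994 of the 2907 loci, so they weigh far more in a count of loci than in a count of entries.

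The entry shared by most loci was the partial mouse prediction mCG1045525, with 391 loci, of which 184 were tested. Its share of all reads was 0.439%, 0.542% and 0.539% in control, 0.273%, 0.225% and 0.336% at 4Gy_48h, 0.108%, 0.103% and 0.107% in the 12Gy_24h libraries and 0.272%, 0.269% and 0.211% in those of 12Gy_48h. The groups at 48 h overlapped with each other, lay below control and lay above the 24 h libraries. The summed entry fell by 2.16 ± 0.13 on the log2 scale at 12Gy_24h (SE, edgeR adjusted p = 6.41e-09), by 1.11 ± 0.13 at 12Gy_48h (adjusted p = 1.29e-05) and by 0.86 ± 0.13 at 4Gy_48h (adjusted p = 0.000347). Of its tested loci, 173 were lower and 1 higher at 12Gy_24h. The second largest entry was rCG56442, a rat prediction, with 354 loci, of which 135 were lower and 2 higher at 12Gy_24h. Its share was 0.26%, 0.316% and 0.289% in control, 0.146%, 0.141% and 0.177% at 4Gy_48h, 0.0678%, 0.0648% and 0.062% in the 12Gy_24h libraries and 0.159%, 0.166% and 0.135% in those of 12Gy_48h. The order of the groups was the same as for mCG1045525, with a fall of 2.06 ± 0.10 at 12Gy_24h (edgeR adjusted p = 1.64e-09) and a rise of 1.05 ± 0.10 from 24 h to 48 h (adjusted p = 2.98e-06).

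Other entries with many loci ran close to these. The entry Chpt1 protein, named for a cholinephosphotransferase of phosphatidylcholine synthesis, had 145 loci and fell by 2.01 ± 0.11 at 12Gy_24h (edgeR adjusted p = 3.04e-09) and by 1.09 ± 0.11 at 12Gy_48h (adjusted p = 3.43e-06). Sterile alpha motif domain-containing protein 15, with 89 loci, fell by 1.99 ± 0.10 and 1.35 ± 0.10 in the same comparisons. The prediction mCG147230, with 76 loci, fell by 1.79 ± 0.09 and 1.00 ± 0.09. Coiled-coil domain-containing protein 18, with 12 loci, fell by 3.05 ± 0.19 at 12Gy_24h and rose by 1.99 ± 0.19 from 24 h to 48 h. Over the 32 entries the log2 fold change at 12Gy_24h ran from −3.05 to 0.88, with a median of −1.99.

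Entries of 10 or more loci that went otherwise were few. The prediction mCG145372, with 152 loci and the most reads of the 32, was 0.427%, 0.464% and 0.471% of reads in control, 0.268%, 0.298% and 0.325% at 4Gy_48h, 0.22%, 0.212% and 0.201% in the 12Gy_24h libraries and 0.269%, 0.275% and 0.248% in those of 12Gy_48h. Its sum fell by 1.01 ± 0.08 at 12Gy_24h and 0.88 ± 0.08 at 12Gy_48h, and the difference between those times did not pass (0.13 ± 0.08, edgeR adjusted p = 0.228). A single locus of that entry, ONT.15926, held 50.2% of its reads, and among its tested loci 35 were higher and 0 lower at 48 h than at 24 h. The prediction mCG1028420 (11 loci) rose by 0.88 ± 0.18 at 12Gy_24h (adjusted p = 0.000599), also with scaling on known genes. Its rise of 0.63 ± 0.18 at 12Gy_48h (adjusted p = 0.0119) was lost with that scaling and without control replicate 3. The sum over the 10 loci that matched the mitochondrial deacylase sirtuin-5 did not pass in any comparison with control, but with scaling on known genes it was lower at 12Gy_24h (−0.75, adjusted p = 0.0355). The entry for a partial unnamed mouse protein product, with 27 loci, was higher at 4Gy_48h in sum (0.53 ± 0.15, adjusted p = 0.0217). That call was lost with scaling on known genes (adjusted p = 0.0879) and without any 1 of control replicates 2 and 3 and 4Gy_48h replicates 1 and 2.

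**Figure D3:**
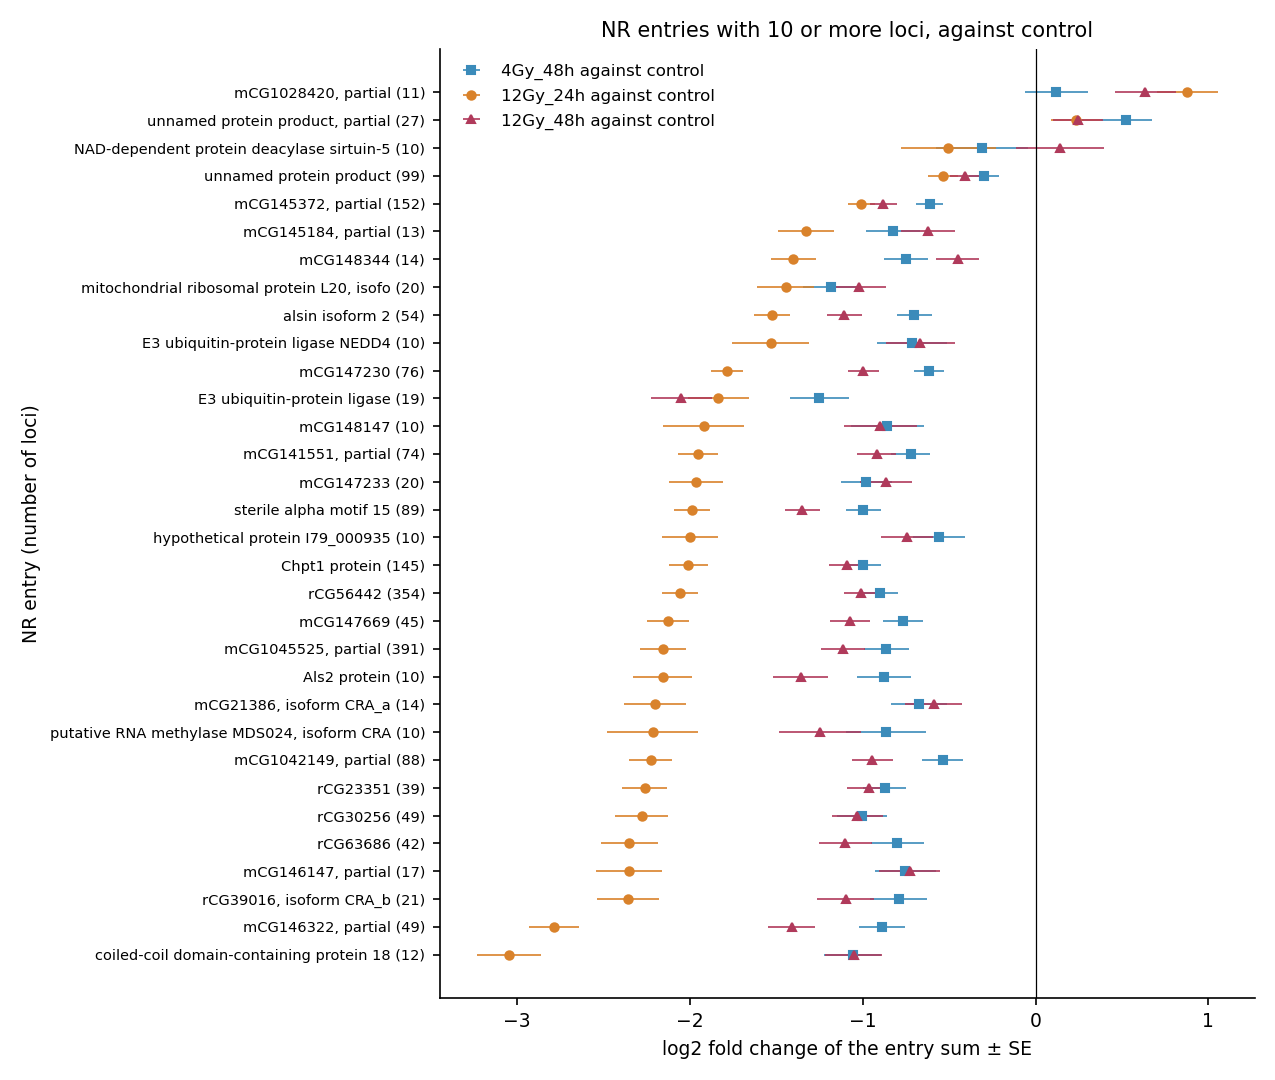
Log2 fold change against control (x axis) of reads summed by NR entry for the entries matched by 10 or more loci, with 1 point per comparison and bars for the standard error. Of 32 entries, 29 are lower in each comparison with control, and most lie furthest left at 12Gy_24h; mCG1028420 lies to the right there.

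Loci with the KEGG entries K10591 and K06751 were mostly lower at 12Gy_24h, where 29.4% of all features were lower and 18.5% higher. Of 126 tested loci with the NEDD4 entry K10591, a ubiquitin ligase of membrane proteins, 119 were lower and 0 higher at 12Gy_24h and 66 and 1 at 12Gy_48h, with medians of −2.48 and −1.0. From 24 h to 48 h, 64 of them were higher and 0 lower, where 20.6% of all features were higher and 11.4% lower. Of 14 tested loci with the entry for MHC class I antigen (K06751), the peptide receptor shown to cytotoxic T cells, 13 were lower and 0 higher at 12Gy_24h. At 12Gy_48h, 9 of these were lower and 0 higher. Of 19 tested loci with the entry for KRAB zinc finger proteins (K09228), a family of repressors that bind retroelements, 8 were lower and 2 higher at 12Gy_24h. At 12Gy_48h, 4 were lower and 1 higher (median 0.02), where 20.2% of all features were lower. Loci of the rCG class overall (243 tested) were lower in 224 cases and higher in 2 at 12Gy_24h, and higher in 125 and lower in 0 at 48 h against 24 h. These groups overlap, since 1 locus can carry an rCG entry and K10591. A KEGG entry also need not name the same protein as NR. ONT.4996, with K09228, matched an envelope protein in NR. ONT.17453, matching a pol protein in NR, carried the KEGG entry of the kinase Pim-1 (K04702). How often the 2 databases differed was not counted.

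Some of the loci that fell had no reads left, or very few, at 24 h after 12 Gy. The locus ONT.15536, with the NR entry Chpt1 protein, had 63 reads in the controls and 0 in the 24 h libraries, at least 19.6-fold lower against a floor of 3 reads over the group. The locus ONT.4328 (mCG148344) had 51 control reads and 0 at 24 h, at least 15.9-fold lower. At 12Gy_48h these loci had 10 and 8 reads. The locus ONT.2924 had 77 control reads and 1 at 24 h, a ratio of 71.9 with a 95% counting interval of 12.5 to 2.88e+03. The rCG56442 locus ONT.4331 had 38 and 0, at least 11.8-fold lower, then 29 reads at 48 h, at least 10.2-fold higher than at 24 h. These bounds cover counting error only. The rCG56442 locus ONT.3057 had 19.6, 27.9 and 62.2 CPM in control, 3.89, 4.94 and 7.82 at 4Gy_48h, 3.98, 4.13 and 4.96 in the 12Gy_24h libraries and 4.97, 4.33 and 2.61 in those of 12Gy_48h. All irradiated libraries lay below all controls without a return at 48 h, and it fell by 3.05 ± 0.40 at 12Gy_24h, 3.18 ± 0.40 at 12Gy_48h and 2.71 ± 0.38 at 4Gy_48h (edgeR adjusted p = 9.19e-06, 2.49e-05 and 0.000216). The locus ONT.5353 (rCG63521) had 34.4, 15.6 and 8.31 CPM in control, 4.15, 6.42 and 1.62 at 4Gy_48h, 0, 0 and 1.46 in the 12Gy_24h libraries and 9.42, 30.3 and 9.67 in those of 12Gy_48h. It was lower at 24 h (−5.32 ± 0.90, adjusted p = 0.000121) and rose again from 24 h to 48 h (5.06 ± 0.92, adjusted p = 0.000693), where the control and 12Gy_48h values overlapped.

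Ribosomal protein matches made up a large part of the reads. Counting a match in any database, 147 loci named a ribosomal protein, and these held 59.99% of the reads on the loci described here. Their share of all reads was 5.56% ± 0.274 in control, 5.59% ± 0.105 at 4Gy_48h, 5.41% ± 0.0557 at 12Gy_24h and 5.12% ± 0.0379 at 12Gy_48h. All other loci took 4.47% ± 0.0913, 3.5% ± 0.146, 3.05% ± 0.078 and 3.38% ± 0.0553 in the same order. Of 83 tested loci that named a ribosomal protein, 5 were lower and 9 higher at 12Gy_24h, 12 and 10 at 12Gy_48h, and 0 and 3 at 4Gy_48h. With scaling on known genes, 14 were lower and 3 higher at 12Gy_24h, 22 and 5 at 12Gy_48h, and 4 and 1 at 4Gy_48h, so that the side with more calls turned at 12Gy_24h and 4Gy_48h. Of all features, 29.4% were lower and 18.5% higher at 12Gy_24h, 20.2% and 12.9% at 12Gy_48h, and 13.0% and 4.53% at 4Gy_48h. Each of these stood above the share of the ribosomal matches called before scaling on known genes. Of the 15 loci with the most reads, 13 named a ribosomal protein. Over the 8 classes of NR text, with Benjamini-Hochberg adjustment, the share of unnamed entries differed among the groups (exact permutation test, p = 0.00052) and so did that of entries naming a ribosomal protein (exact permutation test, p = 0.0268), while other named proteins did not pass (exact permutation test, p = 0.154).

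The locus with the most reads, ONT.11566, matched glyceraldehyde-3-phosphate dehydrogenase (Gapdh), the glycolytic enzyme often used as a reference gene. It had 5507, 4246 and 4381 CPM in control, 6507, 6200 and 6038 at 4Gy_48h, 8145, 8424 and 9850 in the 12Gy_24h libraries and 5462, 5688 and 6360 in those of 12Gy_48h. The 24 h libraries were higher than all others, and control and 12Gy_48h overlapped. It rose by 0.90 ± 0.10 at 12Gy_24h (edgeR adjusted p = 1.66e-06) and fell by 0.59 ± 0.10 from 24 h to 48 h (adjusted p = 0.000339), under both scalings. Its rise of 0.41 ± 0.10 at 4Gy_48h (adjusted p = 0.00932) did not pass with scaling on known genes (adjusted p = 0.0612).

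Several loci matching small ribosomal subunit proteins differed from each other in direction. ONT.12224, matching Rps29 in Swiss-Prot, had 3937, 4597 and 5327 CPM in control, 4495, 3753 and 4134 at 4Gy_48h, 2664, 2871 and 2654 in the 12Gy_24h libraries and 3928, 4111 and 3637 in those of 12Gy_48h. It was lowest in the 24 h libraries, by 0.76 ± 0.10 below control (edgeR adjusted p = 1.02e-05), and rose by 0.51 ± 0.10 from 24 h to 48 h (adjusted p = 0.00112). ONT.18514, matching Rps12, had 2383, 2894 and 3101 CPM in control, 2607, 2502 and 2635 at 4Gy_48h, 3847, 3518 and 3328 in the 12Gy_24h libraries and 1891, 1848 and 2080 in those of 12Gy_48h. It was highest at 24 h and lowest at 48 h after 12 Gy, with no overlap of either group with control: it was higher at 12Gy_24h by 0.35 ± 0.09 (adjusted p = 0.00493), a call lost with scaling on known genes (adjusted p = 0.388), and fell by 0.53 ± 0.09 at 12Gy_48h (adjusted p = 0.0005) under both scalings. ONT.21408, 1 of 2 loci matching Rps2, had 633, 246 and 80.1 CPM in control, 390, 463 and 650 at 4Gy_48h, 1596, 971 and 1682 in the 12Gy_24h libraries and 346, 112 and 251 in those of 12Gy_48h. Its control values spread over a wide range yet lay below every 24 h value, and it rose by 2.14 ± 0.51 at 12Gy_24h (adjusted p = 0.00208).

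Among large subunit matches, ONT.21364, matching Rpl3, had 2863, 2266 and 2650 CPM in control, 2805, 2652 and 2806 at 4Gy_48h, 3057, 3207 and 3316 in the 12Gy_24h libraries and 2152, 1956 and 1979 in those of 12Gy_48h. It fell by 0.35 ± 0.09 at 12Gy_48h (edgeR adjusted p = 0.0047) and was higher by 0.30 ± 0.09 at 12Gy_24h (adjusted p = 0.0077), the second of which did not pass with scaling on known genes (adjusted p = 0.577). ONT.793, matching Rpl10a, fell by 0.41 ± 0.09 at 12Gy_48h (adjusted p = 0.00313). The loci matching Rpl23a (ONT.6376), Rpl21 (ONT.21859), Rpl24 (ONT.21283) and Rpl9 (ONT.5586) did not pass in any of the 5 comparisons, nor did that matching Fau (ONT.8006), whose product is cut to yield ribosomal protein S30. With scaling on known genes, however, Rpl23a, Rpl21 and Fau were lower at both times after 12 Gy (edgeR adjusted p = 0.00308, 0.00269 and 0.00177 at 48 h) and Rpl9 at 24 h (adjusted p = 0.0027), while Rpl24 did not pass in any comparison under that scaling either.

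Because a locus may hold reads that belong to the known gene of the same name, loci were set beside that gene. With at least 5000 reads on at most 10 loci and a known gene of the same Swiss-Prot symbol, there were 39 such genes, 30 of them for ribosomal proteins. The locus held over 50% of the reads of both in 20 cases and over 90% in 8. For Gapdh the loci held 99.0%, so that the known Gapdh gene alone would count 2909 reads against 293947 on 3 loci. For Cdh11, an adhesion protein of mesenchymal cells, 3 loci held 11571 reads and the known gene 0.

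For 8 of the 39 genes the division between locus and known gene differed among the groups (exact permutation test, Benjamini-Hochberg adjusted p below 0.05). The genes described next were picked from these 8, and the other genes did not pass. Of the reads on Rps29, the locus held 54.3%, 66.3% and 69.6% in control, 59.9%, 51.2% and 58.4% at 4Gy_48h, 35.3%, 38.1% and 33.8% in the 12Gy_24h libraries and 62.5%, 63.1% and 55.8% in those of 12Gy_48h. The 24 h libraries lay below all others, which overlapped. At 12Gy_24h the locus was lower by 0.76 while the known gene rose by 0.89 (edgeR adjusted p = 2.13e-05), and their sum was 0.14 ± 0.06 above control and did not pass (adjusted p = 0.0663). Of the reads on Rps12, the 2 loci held 50.6%, 53.9% and 54% in control, 50.2%, 48.8% and 49.7% at 4Gy_48h, 73%, 67.7% and 60.4% in the 12Gy_24h libraries and 38.9%, 38% and 45.2% in those of 12Gy_48h. For Rps12 the 24 h libraries lay above and the 12Gy_48h libraries below all others. The known Rps12 gene fell by 0.49 at 12Gy_24h (adjusted p = 0.00272), and the sum differed by 0.08 ± 0.07 and did not pass (adjusted p = 0.384). With scaling on known genes, the sums of both genes were lower at 12Gy_24h, Rps29 by 0.17 (adjusted p = 0.0294) and Rps12 by 0.22 (adjusted p = 0.026).

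Rpl34, Rpl37a and Rpl29 also divided their reads unequally between groups. For Rpl34 the loci held 18.8%, 22.7% and 23.8% in control, 19%, 18% and 18% at 4Gy_48h, 8.86%, 13% and 11% in the 12Gy_24h libraries and 22.1%, 20% and 21.8% in those of 12Gy_48h, lowest in the 24 h libraries. The locus with most of those reads fell by 0.87 at 12Gy_24h (edgeR adjusted p = 5.9e-05), while the known gene was higher by 0.32 (adjusted p = 0.00169), which did not pass with scaling on known genes (adjusted p = 0.407). For Rpl37a the locus held 27.3%, 18.4% and 21.5% in control and 8.28%, 9.31% and 14.2% at 12Gy_48h. That locus fell by 1.15 at 12Gy_48h (adjusted p = 0.00137), and the sum with the known gene did not pass (−0.02 ± 0.10, adjusted p = 0.924). For Rpl29 the loci held 99.0% of the reads in control and 97.0% at 12Gy_24h (means of 3 libraries). The known Rpl29 gene rose by 1.69 at 12Gy_24h (adjusted p = 2.43e-06), and the sum was higher by 0.23 ± 0.07 (adjusted p = 0.011) but −0.07 with scaling on known genes (adjusted p = 0.452).

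**Figure D4:**
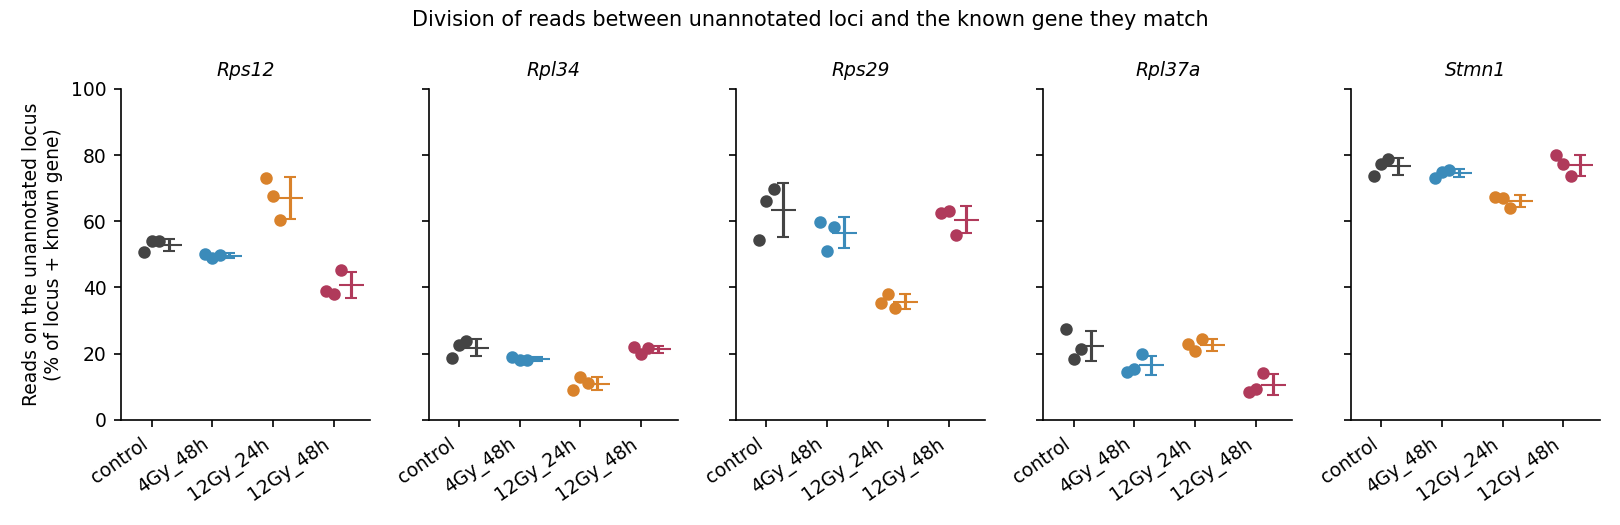
Percent of the reads of locus and known gene together that fell on the locus (y axis, in percent) for Rps12, Rpl34, Rps29, Rpl37a and Stmn1, with 1 point per library and means ± SD of 3 libraries. Shown are the genes, among the 8 of 39 that passed, with less than 90% of the reads on the locus. Rps29 falls from 63.4% in control to 35.7% at 12Gy_24h, and Rps12 goes from 52.8% to 67.0% and then to 40.7% at 12Gy_48h.

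Over the 38 pairs with both sides tested, 9 loci were higher and 3 lower at 12Gy_24h, the known genes were higher in 16 and lower in 1, and 3 pairs had opposite calls. Of the 39 sums, 19 were higher and 2 lower, against 22.5% and 28.6% of features in the fit with sums, and with scaling on known genes 6 were higher and 11 lower. The direction of the sums at 24 h therefore depended on the scaling. At 12Gy_48h, 3 sums were higher and 11 lower (14.5% and 19.7% of features), and 1 and 29 with scaling on known genes. From 24 h to 48 h, 1 sum was higher and 31 were lower (19.5% and 13.1% of features), and 1 and 22 with that scaling. Where locus and gene moved alike the sum did too: Hspa8, a constitutive heat shock chaperone, had its locus (79.1% of the reads) higher by 1.05 and its known gene by 1.44 at 12Gy_24h, and the sum rose by 1.19 ± 0.10 (edgeR adjusted p = 1.2e-07), under both scalings. The sum for Gapdh rose by 0.97 ± 0.09 (adjusted p = 3.59e-07). Stmn1, a regulator of microtubule dynamics, fell in sum by 0.49 ± 0.14 (edgeR adjusted p = 0.00848). Its locus and known gene did not move alike: the locus held 76.6% of the reads in control and 66.2% at 12Gy_24h (means of 3 libraries).

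Loci matching endogenous retroviruses ran against the falls at 24 h. The 17 loci with the Swiss-Prot entry Iap, an IgE-binding protein encoded by intracisternal A particles, held 82007 reads, 59419 of them on the locus ONT.17453. Their share of all reads was 0.0972%, 0.131% and 0.168% in control, 0.129%, 0.149% and 0.111% at 4Gy_48h, 0.298%, 0.306% and 0.277% in the 12Gy_24h libraries and 0.161%, 0.153% and 0.147% in those of 12Gy_48h. The 24 h libraries lay above all others, and the other 3 groups overlapped. Of 14 Iap loci tested, 13 were higher and 0 lower at 12Gy_24h (12 and 0 with scaling on known genes), with a median log2 fold change of 1.36. Of all features, 18.5% were higher and 29.4% lower at 12Gy_24h, and 11.4% were lower at 48 h than at 24 h. None of the 14 was called at 12Gy_48h, 1 was lower at 4Gy_48h, and 11 were lower at 48 h than at 24 h. The loci were grouped after their values had been seen, and near-identical copies make the assignment of reads among them uncertain.

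The Iap locus with the most reads, ONT.17453, matched a pol protein, the reverse transcriptase and integrase part of the element. It had 742, 872 and 1203 CPM in control, 973, 1131 and 797 at 4Gy_48h, 2239, 2321 and 2288 in the 12Gy_24h libraries and 1101, 1059 and 970 in those of 12Gy_48h. The 24 h libraries were closely spaced and stood apart, and it rose by 1.28 ± 0.15 (edgeR adjusted p = 2.42e-06) and fell by 1.13 ± 0.15 from 24 h to 48 h (adjusted p = 3.83e-05). ONT.17094, matching a gag-pol protein, had 123, 164 and 209 CPM in control, 148, 145 and 142 at 4Gy_48h, 304, 339 and 325 in the 12Gy_24h libraries and 180, 184 and 189 in those of 12Gy_48h. It rose by 0.97 ± 0.14 at 12Gy_24h (adjusted p = 3.21e-05), and the later values overlapped with control. ONT.16024, matching an IgE-binding-like protein in NR, had 0.645, 5.89 and 9.64 CPM in control, 12.5, 7.4 and 5.66 at 4Gy_48h, 54.9, 41.6 and 20.4 in the 12Gy_24h libraries and 6.54, 5.35 and 10.7 in those of 12Gy_48h, and rose by 2.92 ± 0.49 (adjusted p = 0.000112). The locus ONT.13596, matching gag, had 6.45, 14.3 and 17.4 CPM in control, 6.75, 10.6 and 10.3 at 4Gy_48h, 52.3, 42.7 and 52.5 in the 12Gy_24h libraries and 12.6, 8.41 and 12.3 in those of 12Gy_48h, and rose by 1.97 ± 0.25 (adjusted p = 8.49e-06). In all 4 of these, control replicate 1 was the lowest library of its group. The Iap locus that did not pass at 12Gy_24h was ONT.2978.

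**Figure D5:**
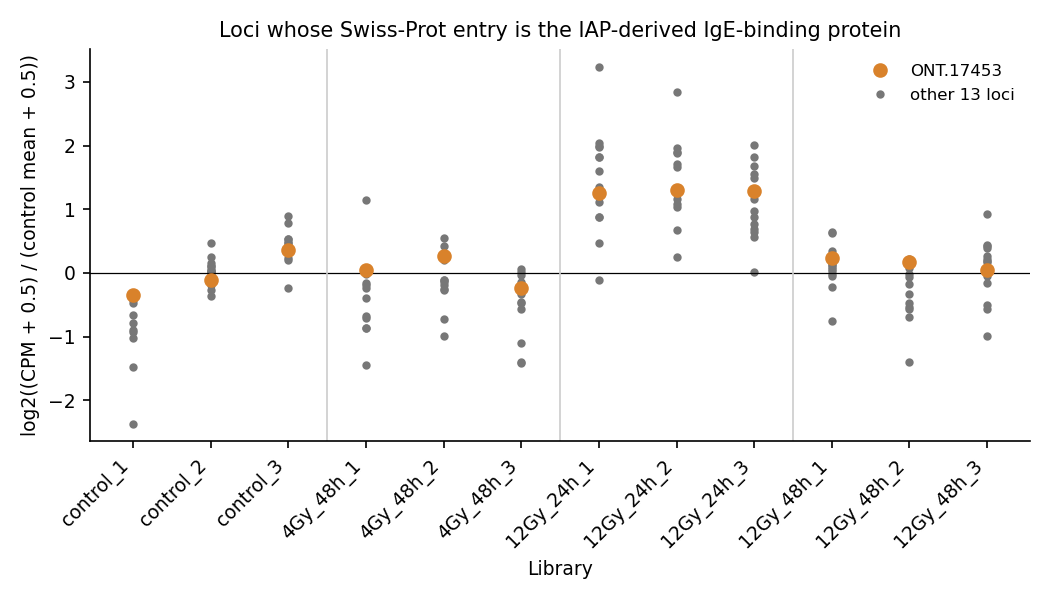
Log2 ratio of CPM in each library to the control mean, with 0.5 CPM added to both (y axis), for the tested Iap loci; each point is 1 of the 14 loci in 1 library and large points are ONT.17453. The 12Gy_24h libraries stand above the others, with 13 of 14 loci higher at 12Gy_24h than in control (12 of 14 with scaling on known genes). Of all features, 18.5% were higher at 12Gy_24h than in control.

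Loci matching other retroviral proteins did not share 1 course. ONT.4389, matching a pol protein outside the Iap entry, had 70.5, 48.1 and 78.8 CPM in control, 75.8, 84.1 and 74.2 at 4Gy_48h, 134, 110 and 135 in the 12Gy_24h libraries and 35.6, 26.7 and 47.8 in those of 12Gy_48h. It rose by 0.94 ± 0.19 at 12Gy_24h (edgeR adjusted p = 0.000572) and fell by 0.84 ± 0.20 at 12Gy_48h (adjusted p = 0.00396), on either side of the controls without overlap. ONT.15627, matching an envelope polyprotein related to murine leukemia virus, went the opposite way, with 14.4, 14.3 and 4.55 CPM in control, 14.8, 16.8 and 10.3 at 4Gy_48h, 4.25, 6.06 and 1.46 in the 12Gy_24h libraries and 41.1, 56 and 78.1 in those of 12Gy_48h. It rose by 2.37 ± 0.33 at 12Gy_48h (adjusted p = 6.92e-05) and by 3.87 ± 0.40 from 24 h to 48 h (adjusted p = 4.68e-06), and stood 2.06 ± 0.33 above 4Gy_48h (adjusted p = 0.00415). ONT.8897, matching the envelope-like restriction factor Fv4, had 123, 186 and 125 CPM in control, 121, 152 and 117 at 4Gy_48h, 71.1, 62.8 and 52.8 in the 12Gy_24h libraries and 134, 120 and 114 in those of 12Gy_48h. It fell by 1.22 ± 0.17 at 12Gy_24h (adjusted p = 1.71e-05). ONT.9440, matching Fv4 too, rose by 2.03 ± 0.36 at 12Gy_24h (adjusted p = 0.000206). The 15 tested loci whose NR text names a retrovirus include Iap loci already counted above, among them ONT.17453, ONT.17094, ONT.6048 and ONT.13596, all higher at 12Gy_24h. Over these 15, 10 were higher and 1 lower at 12Gy_24h (6 and 1 with scaling on known genes), and 1 was higher and 9 lower at 48 h than at 24 h. The 2 counts at 24 h are therefore not separate. Of all features, 18.5% were higher and 29.4% lower at 12Gy_24h, and 20.6% and 11.4% at 48 h against 24 h. The share of reads of this class differed among the groups (exact permutation test, adjusted over the 8 classes p = 0.0197). The Iap locus ONT.17453 alone held 59419 of the 99439 reads of this class.

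Some loci with an entry of their own rose and stayed up. ONT.8394, matching the uncharacterised protein LOC115031761, had 30.7, 28.7 and 21.2 CPM in control, 71.7, 67.6 and 84.4 at 4Gy_48h, 67.1, 65 and 71.2 in the 12Gy_24h libraries and 81.1, 94.7 and 73.2 in those of 12Gy_48h. All irradiated libraries lay above all controls, and it rose by 1.47 ± 0.15, 1.33 ± 0.16 and 1.62 ± 0.15 in these groups (edgeR adjusted p = 3.79e-05, 3.05e-06 and 2.93e-06). ONT.234, matching predicted gene 7592 and the Swiss-Prot entry Csprs, had 18.9, 33.5 and 22 CPM in control, 55, 52.1 and 67.4 at 4Gy_48h, 16.2, 22.6 and 25.7 in the 12Gy_24h libraries and 67, 56 and 76.8 in those of 12Gy_48h. It was high in the libraries taken at 48 h only, with rises of 1.23 ± 0.21 after 4 Gy (adjusted p = 0.000722) and 1.43 ± 0.21 after 12 Gy (adjusted p = 8.52e-05), and 12Gy_24h overlapped with control. In all, 18 loci were higher than control at both times after 12 Gy, a count that was not made over all features. Both loci passed with scaling on known genes as well.

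Other rises were held to 1 time after 12 Gy. At 24 h, ONT.6488, matching the poly(A)-binding protein Pabpc1, had 3.01, 4.61 and 4.29 CPM in control, 11.2, 6.42 and 6.47 at 4Gy_48h, 14.9, 17.1 and 22.5 in the 12Gy_24h libraries and 4.45, 3.82 and 5.75 in those of 12Gy_48h. It rose by 2.20 ± 0.27 at 12Gy_24h (edgeR adjusted p = 6.17e-06) and fell by 1.95 ± 0.27 from 24 h to 48 h (adjusted p = 7.08e-05). ONT.16331, matching the neurosecretory protein Vgf, rose by 2.03 ± 0.39 at 12Gy_24h (adjusted p = 0.000427). In all, 52 loci were higher at 24 h than in control and lower at 48 h than at 24 h. The 24 h libraries enter both of these comparisons, and the count was not made over all features. At 48 h, ONT.5313 (mCG12966) had 0.645, 3.07 and 0.268 CPM in control, 4.67, 2.96 and 3.24 at 4Gy_48h, 0.796, 3.86 and 0.875 in the 12Gy_24h libraries and 8.9, 12 and 11.5 in those of 12Gy_48h, and rose by 3.02 ± 0.52 against control (adjusted p = 0.000377). ONT.15745, matching Rpl22l1, had 3 reads in the controls and 53 at 12Gy_48h, a ratio of 20 with a 95% counting interval of 6.47 to 99.8. ONT.16771, with the Swiss-Prot entry Rps28, had 15.9, 0 and 33.5 CPM in control, 20.3, 31.3 and 14.6 at 4Gy_48h, 26.8, 21.5 and 15.2 in the 12Gy_24h libraries and 0.523, 1.27 and 0 in those of 12Gy_48h. It fell by 5.06 ± 1.06 from 24 h to 48 h (adjusted p = 0.00192), while control replicate 2 overlapped with the 12Gy_48h values.

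Between doses at 48 h, 23 loci were higher and 55 lower after 12 Gy than after 4 Gy, where 2.19% and 2.49% of all features were, with a median log2 difference of −0.17. By NR entry, 12 sums were higher and 14 lower (2.28% and 2.83% of features). These counts moved with single libraries. Without 12Gy_48h replicate 2, only 2 loci were higher, 8 lower and 3 entries called. The higher loci numbered 9, 6 and 14 without 4Gy_48h replicates 1, 2 and 3 and 9 without 12Gy_48h replicate 1. The lower loci numbered 18 without 4Gy_48h replicate 3, and 23 and 24 without 12Gy_48h replicates 1 and 3. The entries called numbered 12 without 4Gy_48h replicate 3, 11 and 15 without 12Gy_48h replicates 1 and 3, and 45 without control replicate 1. ONT.15404, matching a hamster hypothetical protein, had 5.71, 4.44 and 3.51 CPM at 4Gy_48h and 15.7, 19.1 and 16.5 at 12Gy_48h, without overlap. It stood 1.9 ± 0.28 higher after 12 Gy (edgeR adjusted p = 0.00285), and its control values of 13.8, 16.1 and 6.97 CPM overlapped with 12Gy_48h. ONT.57 (mCG146322) had 7.79, 4.69 and 7.55 CPM at 4Gy_48h and 2.09, 1.53 and 2.61 at 12Gy_48h, against 12.7, 13.1 and 15 in control. It was lower by 1.67 ± 0.31 after 12 Gy than after 4 Gy (adjusted p = 0.00949), lower than control at both doses, and lost the call between doses without 12Gy_48h replicate 2.

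A pair of lists of known genes stands beside these loci: those that repress or restrict retroelements, and those of nuclear RNA decay. Of 37 tested genes of the first list, 14 were higher and 2 lower at 12Gy_48h (8 and 3 with scaling on known genes), 9 and 0 at 12Gy_24h (1 and 3), and 10 and 0 at 4Gy_48h (4 and 0). Of all features, 12.9%, 18.5% and 4.53% were higher in these 3 comparisons. At 12Gy_48h these included Bst2, a membrane tether of budding virions (1.54, edgeR adjusted p = 1.57e-06), Mov10, an RNA helicase (1.11, adjusted p = 0.000205), and Trex1, a DNA exonuclease (1.67, adjusted p = 0.000603). At 12Gy_24h, when the Iap loci were higher, Atrx, a chromatin remodeller, was higher by 1.22 (adjusted p = 0.00193; 0.0107 with scaling on known genes), and Trim28, the KRAB zinc finger corepressor, by 0.59 (adjusted p = 0.00662), which did not pass with scaling on known genes (adjusted p = 0.0781). The median over the list was 0.12 at 12Gy_24h, beside 0.006 for all features tested, and became −0.11 with scaling on known genes. The 3 genes lower at 12Gy_24h with that scaling were Zc3hav1 (−0.66), Bst2 (−0.42) and Cbx1 (−0.39). Of 33 tested genes of RNA decay, 10 were higher and 0 lower at 12Gy_24h (2 and 2 with scaling on known genes), with a median of 0.33 that became 0.09 with that scaling. At 12Gy_48h, 4 were higher and 1 lower (2 and 5 with scaling on known genes), and at 4Gy_48h 2 and 0 (0 and 0). Ncbp2, a subunit of the nuclear cap-binding complex, rose by 1.25 (adjusted p = 0.00015) and Xrn2, the nuclear exonuclease of transcription termination, by 0.59 (adjusted p = 0.00219), each under both scalings. At 48 h against 24 h, 1 of the 33 was higher and 7 were lower. Cdkn1a, the p53-induced cell cycle inhibitor, did not pass in any comparison with control (−0.07 at 12Gy_48h, −0.10 at 12Gy_24h and −0.26 at 4Gy_48h).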

How the data were processed

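RNA was measured as read counts per feature, deposited by the authors in a table that also holds the authors' CPM per feature and annotation columns. The deposited CPM values equal counts scaled by library total to within 4.78e-06. The CPM printed here for loci were recomputed from the counts with TMM scaling, and those of the cell type markers with library totals. Per the submitters' processing notes, cutadapt 1.9 and FastQC were used; the sources used here do not give the aligner, genome build or strandedness. A total of 11 overflow lines of the 33636, with 0 counts, were dropped. The quasi-likelihood test of edgeR 4.0.16 (R 4.3.3) was run on the counts of all 12 libraries (filterByExpr, minimum count 10, 1 mean per group), adjusted over 15086 features, with calls at adjusted p 0.05. Shares were tested by exact permutation. Fitted to simulated counts for 12Gy_48h against control on 15086 features, the test recovered 14%, 39% and 92% of features changed 1.5-, 2- and 4-fold. In the simulation 50, 100 and 50 features were so changed, and 4 others were called. In the data 1945 features were called higher and 3050 lower, so recovery there may differ from these rates.

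The loci named were the 15 loci and 15 entries with the most reads, the 6 largest rises and falls per comparison among called loci with groups that do not overlap and a mean of at least 1 CPM in the higher group, and the loci with the most reads of the 3 largest entries. Retroviral loci, entries of 10 or more loci and pairs with known genes (at least 5000 reads on at most 10 loci) were added after values had been seen. Members and lists were chosen with earlier results of these data known. The split by loci per entry, the Iap group and the grouping by any ribosomal match were also chosen after values had been seen. The NR classes set rCG entries apart and correct a LINE-1 pattern that had caught ribosomal names. Near-identical copies make the count of a single locus uncertain. Other scalings, filters, DESeq2 1.42.0, a replicate block and leaving out each library were tried.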

Additional observations from a re-analysis of the deposited data

Results flagged for a closer look

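A small number of loci were called in opposite directions against control at 24 h and at 48 h after 12 Gy, and in each the difference between these times was itself tested with edgeR. Of these, 4 were lower at 24 h and higher at 48 h. The locus ONT.15627, matching an envelope polyprotein related to murine leukemia virus, differed by 3.87 on the log2 scale (48 h minus 24 h), although its 24 h call was lost without control replicate 1, control replicate 2 or 12Gy_24h replicate 3. The locus ONT.15363, matching a sirtuin-4-like protein, differed by 4.15, from 0.796, 0.551 and 0 CPM at 24 h to 11.3, 7.64 and 7.32 CPM at 48 h. The locus ONT.5349 (mCG1028680) differed by 4.53, with a 24 h call lost without control replicates 2 or 3 and 12Gy_24h replicates 2 or 3. The locus ONT.9115, matching Eef1a1, differed by 2.01, and its 48 h call did not pass with scaling on known genes (edgeR adjusted p = 0.129) or with any 1 of control replicates 1 and 3, 4Gy_48h replicates 1 and 3 or the 3 12Gy_48h libraries left out, and its 24 h call was lost without control replicate 2 or 12Gy_24h replicates 1 or 3.

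Another 5 loci were higher at 24 h and lower at 48 h. Of these, 3 match pol proteins: ONT.4389 differed by −1.78, ONT.370 by −1.23 and ONT.5868 by −1.08. The 48 h call of ONT.370 was lost without control replicates 1 or 3 or 12Gy_48h replicates 1 or 2. For ONT.5868 neither call against control held without 12Gy_24h replicate 1. Its 24 h call did not pass with scaling on known genes (edgeR adjusted p = 0.284) or without control replicate 2, and its 48 h call was also lost on leaving out any 1 of control replicates 1 and 3, 4Gy_48h replicate 1, 12Gy_24h replicates 2 and 3 and 12Gy_48h replicates 1 and 2. The ribosomal matches ONT.18514 (Rps12) and ONT.21364 (Rpl3) differed by −0.88 and −0.65, and their higher values at 24 h did not pass with scaling on known genes (edgeR adjusted p = 0.388 and 0.577).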

How the results depend on the processing

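Counts of all loci higher or lower, and totals of entries called, that are not listed here stayed within 1.5 times of the value reported. By direction, entries higher went from 60 to 36 at 12Gy_24h, from 52 to 35 at 12Gy_48h and from 19 to 10 at 4Gy_48h with scaling on known genes, and entries lower for 12 against 4 Gy from 14 to 22. Without a filter on low counts, 111 loci were higher at 12Gy_48h, 149 higher and 1481 lower at 12Gy_24h, 68 higher at 4Gy_48h, and 48 higher, 102 lower and 57 entries called for 12 against 4 Gy. With scaling on known genes, 53 were higher at 12Gy_24h and 14 at 4Gy_48h, where DESeq2 gave 17. The median at 12Gy_24h was −1.69 without a filter, −1.82 with DESeq2's size factors in edgeR, −2.10 with known genes, −1.96 with library totals and −1.85 in DESeq2. At 12Gy_48h it was −1.01 with known genes. For 48 h against 24 h it was 0.765 without a filter and 1.046 with totals, and for 12 against 4 Gy −0.077 with totals.

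As a percent of known-gene reads, the share differed by −2.908 (12Gy_48h), −3.353 (12Gy_24h) and −2.052 (4Gy_48h) from control, by 0.4448 for 48 h against 24 h and by −0.8561 for 12 against 4 Gy. Without the Gapdh locus the differences were −1.686, −1.935 and, for 48 h against 24 h, 0.2486. The ratio to loci without a match reversed at 12Gy_48h (−6.879) and 4Gy_48h (−1.816), and differed by 0.3406 at 12Gy_24h, −7.219 for 48 h against 24 h and −5.063 for 12 against 4 Gy (4 groups, exact permutation p = 0.108). Without the Gapdh locus the ratio to other new loci differed by 1.32 at 12Gy_24h and −0.9255 for 48 h against 24 h.

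Leaving out each library gave, for 12 against 4 Gy, 2 to 32 loci higher, 8 to 76 lower, 3 to 45 entries called and medians of −0.197 to −0.065; the fewest came without 12Gy_48h replicate 2. At 4Gy_48h it gave 14 to 32 higher (fewest without 4Gy_48h replicate 1) and 292 to 510 lower (fewest without 4Gy_48h replicate 2). Medians ran from −1.891 to −1.749 at 12Gy_24h and 0.777 to 0.917 for 48 h against 24 h. Share differences ran from −1.711 to −1.399 at 12Gy_24h, −1.669 to −1.357 at 12Gy_48h, 0.00019 to 0.07285 for 48 h against 24 h (lowest without 12Gy_24h replicate 1) and −0.6853 to −0.497 for 12 against 4 Gy.

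Same-numbered libraries correlated at −0.27 to 0.20, with 3 of 18 pairs over 0.1. With 3 libraries per group, such values cannot show whether same-numbered libraries shared a batch. With a replicate block, 13 loci were higher for 12 against 4 Gy, and 938 were lower at 12Gy_24h. Of 357 called values of single loci and entries, 31 no longer passed with scaling on known genes, 27 with totals, 20 in DESeq2 and 97 without some library, and 0 reversed. Depth left 1319 of the 2907 loci with enough reads to be tested.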
